A study of Mus musculus with 24 samples.

Results

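Transcription factors that specify the eye field and the retinal pigment epithelium (RPE) were followed in postnatal RPE of mice in which Ift20, a gene of the intraflagellar transport machinery of cilia, is targeted. They are Otx2, Pax6, Lhx2, Sox9, Six3, Rax, Vax2, Tbx2 and Tbx5, chosen by symbol and matched through their Ensembl identifiers, and they make up 9 of the 31053 gene identifiers counted. Isolated RPE cells were profiled in 24 libraries, 4 for each of 6 groups, by 3' end sequencing of polyadenylated RNA. The mutants are labelled IFT20 floxed and Cre positive, and the controls Cre positive, collected on postnatal days 11 (P11) and 29 (P29) and at an age of 3 months (3M). All groups therefore carried Dct-Cre, a recombinase under a promoter active in pigment cells, and the controls differ from the mutants by the floxed Ift20 gene. The background strain was mixed in both genotypes and sex was not collected. The labels number biological replicates without saying whether each was 1 animal or a pool, so a p-value speaks only to the variation among libraries, which may be of technical origin.

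The eye field is the patch of anterior neural plate from which both retina and RPE arise, and Rax, Six3, Pax6 and Lhx2 are part of the network that sets it up. When the optic vesicle is patterned, Otx2 acts with Mitf to install the pigment cell program in the outer layer, while Pax6 is kept in the neural retina, the lens and, at lower levels, the maturing RPE. Sox9 acts with Otx2 and Lhx2 on visual cycle genes in the RPE, Vax2 marks the ventral optic cup, and Tbx5 and Tbx2 mark the dorsal optic cup.

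A library held 1513440 to 2889946 gene counts, and 3 counts, the smallest number taken here as a floor, corresponded to 1.04 to 1.98 CPM, the usual depth-scaled count. CPM values were scaled by TMM factors, and 1 tag is read per transcript end. The tests compare each gene between groups and not with other genes. The summed level of 14 RPE marker genes was 27124 to 28496 CPM in mutants and 29156 to 30582 CPM in controls at P11, and 70884 to 74281 CPM in mutants and 70218 to 73370 CPM in controls at 3M. The libraries also held transcripts of photoreceptors: at P11 17 rod genes summed to 19708 to 20202 CPM in mutants and 16241 to 17386 CPM in controls. Their sums at the later ages stand beside the results on Rax. Ift20 itself had 76.7 to 94.2 CPM in mutants and 60.7 to 150 CPM in controls at P11, 57.9 to 88.8 CPM in mutants and 84.9 to 124 CPM in controls at P29, and 97.4 to 117 CPM in mutants and 118 to 160 CPM in controls at 3M; a 3' tag can lie outside the deleted part, so this does not check the genotype labels. At P11 mitochondrial transcripts took 10.2% to 11.1% of gene counts in mutants and 7.30% to 8.79% in controls, and reads in no annotated feature were 26.5% to 27.5% of all entries in mutants and 22.7% to 24.1% in controls. In bulk RNA of this kind, fewer cells of a type and less RNA per cell cannot be told apart.

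All 9 factors had enough counts to be tested. At P11, 3 of them passed the edgeR quasi-likelihood test at a Benjamini-Hochberg adjusted p under 0.05, against 6.93% of all 12303 genes tested: Vax2 and Six3 rose in mutants and Sox9 fell. At P29 only Sox9 passed, lower in mutants, against 2.84% of all genes. At 3M Rax and Pax6 passed, both higher in mutants, against 2.61% of all genes. The median log2 fold change of the 9 factors was 0.22 at P11, -0.05 at P29 and 0.18 at 3M, beside medians over all genes of -0.0016, -0.00073 and 0.03. The libraries of mutants and controls did not overlap for 5 factors at P11, 2 at P29 and 2 at 3M, against 10.3%, 7.75% and 8.07% of all genes. Averaged over the 3 ages, Pax6, Rax, Vax2 and Six3 were higher in mutants and Sox9 lower, 5 factors in all, against 7.47% of all genes. The genotype effect itself differed with age for Six3 between P29 and P11, where 2.63% of all genes passed, and for Sox9 and Rax between 3M and P29, where 0.853% did. In controls, 7 of the 9 factors passed at P29 against P11, where 32% of all genes did, and 3 passed at 3M against P29, where 12% did.

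**Figure D1:**
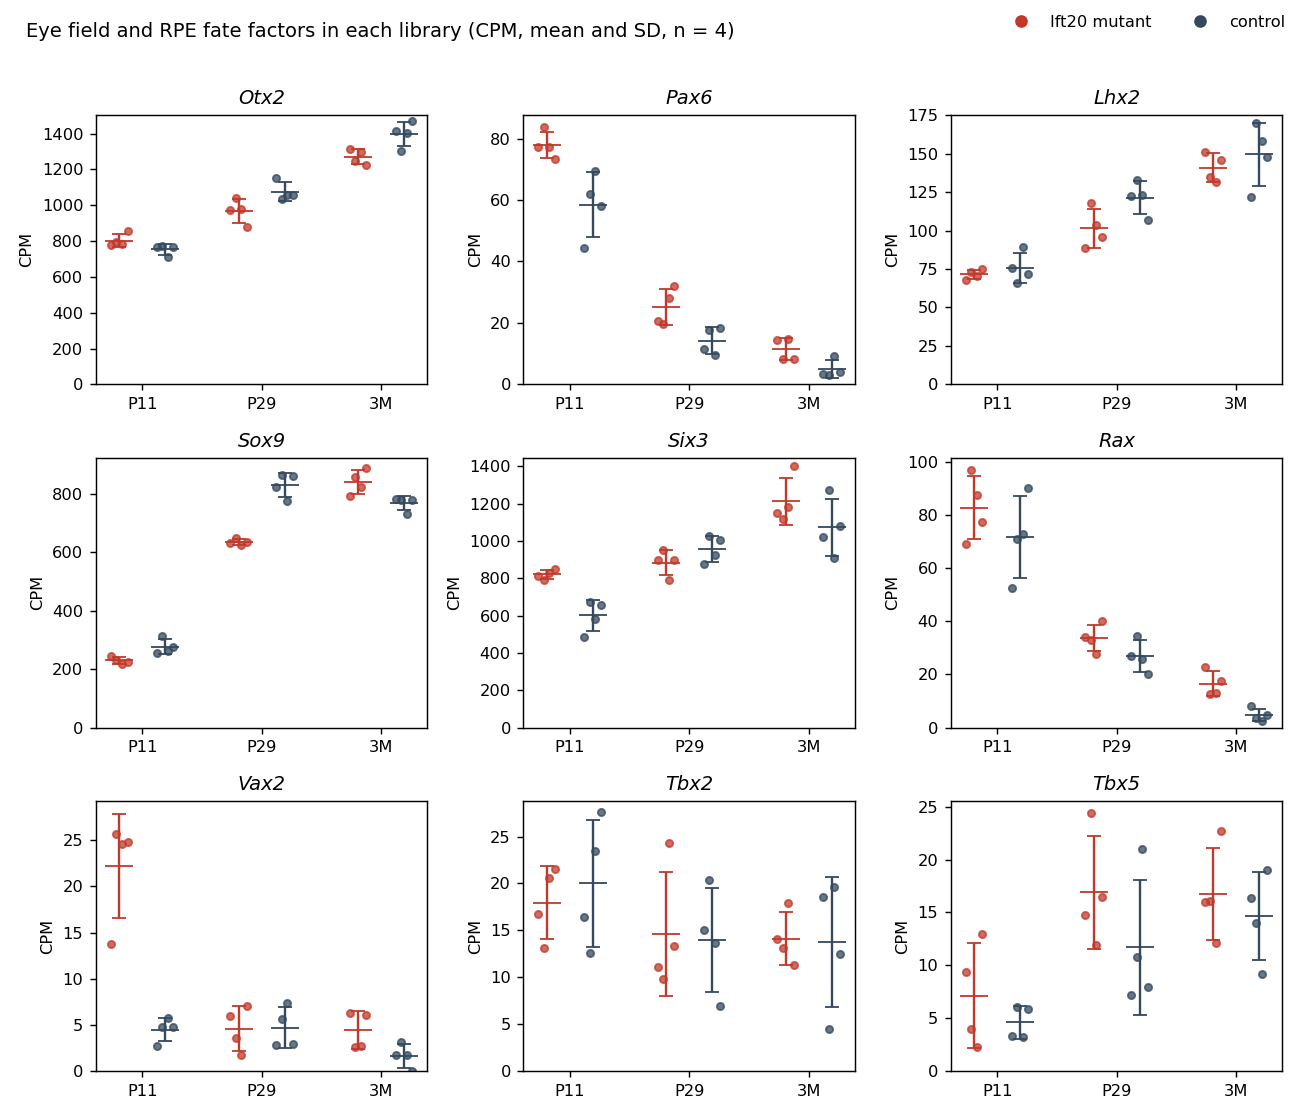
Level of each factor in CPM (linear axes from 0) in every library, with mutants (red) to the left of controls (blue) at P11, P29 and 3M. Bars give the mean and SD of 4 libraries. The means of Rax and Pax6 are lower at each later age in both genotypes, Sox9 and Otx2 are higher at P29 than at P11, and the 4 P11 mutant libraries stand above all others for Vax2.

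**Figure D2:**
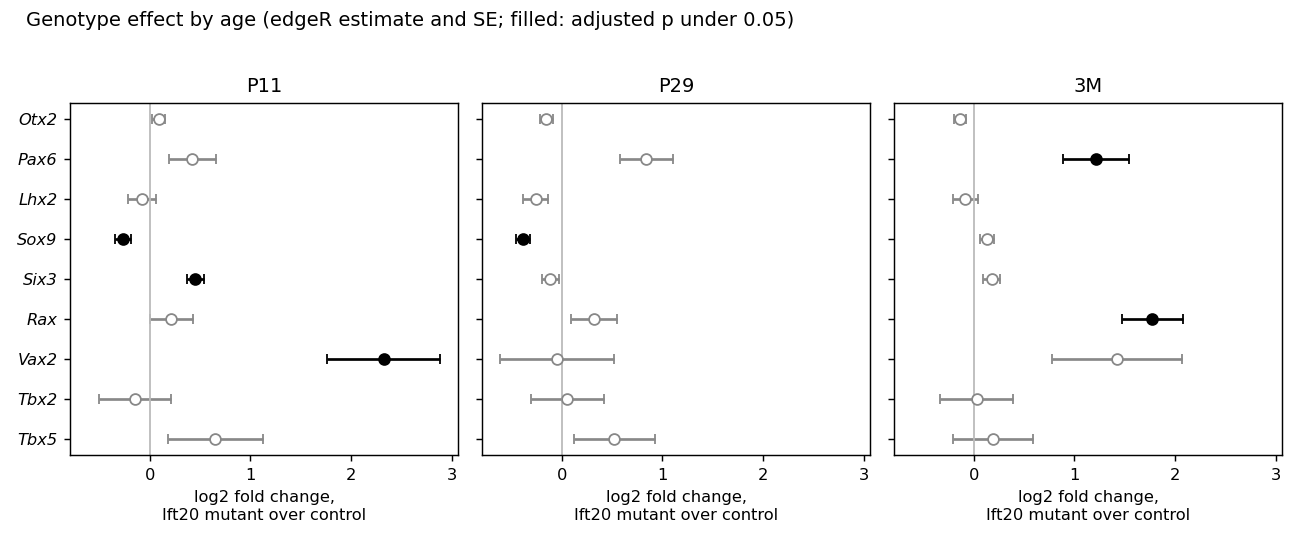
Log2 fold change of mutant over control for each factor at P11, P29 and 3M, as the edgeR estimate with its standard error. Filled points passed an adjusted p of 0.05: Sox9, Six3 and Vax2 at P11, Sox9 at P29, and Pax6 and Rax at 3M.

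Sox9 (ENSMUSG00000000567), which activates visual cycle genes in the RPE, was lower in mutants at P11 and P29 and not at 3M. In GRCm38 the gene lies on the plus strand of chr11:112782224-112787760. At P11 its level was 247, 231, 217 and 226 CPM in the 4 mutant libraries, against 256, 312, 263 and 277 CPM in the 4 control libraries. Every mutant library lay below every control library, although the highest mutant and the lowest control were close. On the log2 scale the difference was -0.27 (SE 0.08, edgeR adjusted p = 0.0156). This was the least stable of the Sox9 calls: the adjusted p was 0.109 without control replicate 2 and 0.0638 without mutant replicate 3, and 0.156 with limma voom, 0.0537 with no filter on low counts and 0.105 when only the P11 libraries were fitted.

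At P29 the gap was wider. Sox9 had 633, 648, 626 and 637 CPM in mutants and 823, 865, 775 and 862 CPM in controls. The mutant libraries were within 22.4 CPM of each other, and the lowest control lay 127 CPM above the highest mutant. The difference on the log2 scale was -0.39 (SE 0.07, edgeR adjusted p = 5.87e-05), and it passed under every alternative fit and without any single library. At 3M the order was the other way, with 794, 858, 824 and 890 CPM in mutants and 783, 781, 733 and 778 CPM in controls. The 3M groups did not overlap, but the log2 fold change of 0.13 (SE 0.07) did not pass (edgeR adjusted p = 0.506). The change in the genotype effect, 3M minus P29, was 0.52 on the log2 scale (SE 0.10, adjusted p = 0.000605).

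In controls Sox9 averaged 277 CPM ± 24.9 at P11, 831 CPM ± 42.0 at P29 and 769 CPM ± 23.8 at 3M (SD, n = 4 each). P29 was above P11 by 1.59 on the log2 scale (SE 0.07, edgeR adjusted p = 8.09e-36), while 3M against P29 did not pass (log2 fold change -0.11, adjusted p = 0.367). In mutants the means were 230 CPM ± 12.4 at P11, 636 CPM ± 9.34 at P29 and 841 CPM ± 41.6 at 3M, and the 3M libraries lay above the P29 libraries without overlap. From the highest, the groups ordered as 3M mutants, P29 controls, 3M controls, P29 mutants, P11 controls and P11 mutants, and only the first 3 overlapped with their neighbours. Sox9 is also active in Müller glia of the retina. A joint marker list of Müller glia and astrocytes summed to 10679 to 11337 CPM in P29 mutants and 11764 to 12538 CPM in P29 controls. Of its 10 tested genes 1 was higher and 1 lower at P29, against 2.84% of all genes, with a median log2 fold change of 0.19. Apoe, Rlbp1 and Glul held 95.9% of that sum in mutants and 96.3% in controls, and Rlbp1 is on the RPE list too. The other 8 genes, a split chosen after the levels were seen, summed to 432 to 462 CPM in P29 mutants and 401 to 478 CPM in P29 controls. At P11 the same list summed to 5139 to 5459 CPM in mutants and 5448 to 5823 CPM in controls. There 4 genes were lower, against 6.93% of all genes, with a median of -0.16. The 8 genes summed to 465 to 564 CPM in mutants and 603 to 697 CPM in controls at P11. Among them Gfap (7.96 CPM in mutants and 63.1 CPM in controls), Vim, Hes1, Aqp4 and Kcnj10 had lower means in mutants. Slc1a3 (80.4 CPM in mutants and 53.2 CPM in controls), Crym and Dkk3 had higher means. The RPE list summed to 47985 to 50717 CPM in P29 mutants and 55332 to 56167 CPM in P29 controls. Their part in the Sox9 differences was not tested.

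Otx2 (ENSMUSG00000021848), the homeobox factor needed for RPE identity, did not pass between genotypes at any age and was higher at each later age in controls. It lies on the minus strand of chr14:48657677-48673819. Its level at P11 was 776, 793, 784 and 857 CPM in mutants and 769, 772, 710 and 766 CPM in controls, a separation by only 4.04 CPM. At P29 it was 971, 1042, 981 and 877 CPM in mutants and 1151, 1034, 1058 and 1058 CPM in controls, and at 3M 1317, 1245, 1299 and 1224 CPM in mutants and 1413, 1304, 1402 and 1468 CPM in controls. The groups overlapped at both later ages. The log2 fold changes were 0.09, -0.15 and -0.14 (SE 0.06 each), with edgeR adjusted p-values of 0.479, 0.264 and 0.369; with limma voom the P29 and 3M values passed (-0.17, adjusted p = 0.0153, and -0.14, adjusted p = 0.0210). In controls Otx2 rose at both steps, by 0.51 at P29 against P11 (SE 0.06, edgeR adjusted p = 5.14e-11) and by 0.38 at 3M against P29 (SE 0.06, adjusted p = 1.63e-06). From the highest, the groups ordered as 3M controls, 3M mutants, P29 controls, P29 mutants, P11 mutants and P11 controls, with overlap only between the genotypes of the same age at 3M and P29. Otx2os1, an antisense transcript at the locus, was counted at 41.4 to 112 CPM, and the sources used here do not say whether counting used strand, so tags of the 2 genes may not be fully separated.

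Otx2 has 4 annotated start sites in the RefSeq promoter table (GRCm38.p6), and 4 of the 9 factors, Otx2, Pax6, Lhx2 and Six3, had entries there. Each 300-base window was searched on both strands for TAATTA, the core that many homeodomain proteins recognise, for TAATCC, the core of the Otx class, and for CCAAT, a general promoter element. The window below is shown because it held more homeodomain cores than any other window of the 9, 3 TAATTA and 1 TAATCC (printed on this strand as GGATTA), and it was picked after the matches were seen. Capitals mark the matches, which do not overlap each other, and TAATTA reads the same on both strands; TAATTA occurs in 5.29% of the 32851 promoter windows in that table and TAATCC in 7.06%.
Otx2 promoter, minus strand, chr14:48665060-48665359: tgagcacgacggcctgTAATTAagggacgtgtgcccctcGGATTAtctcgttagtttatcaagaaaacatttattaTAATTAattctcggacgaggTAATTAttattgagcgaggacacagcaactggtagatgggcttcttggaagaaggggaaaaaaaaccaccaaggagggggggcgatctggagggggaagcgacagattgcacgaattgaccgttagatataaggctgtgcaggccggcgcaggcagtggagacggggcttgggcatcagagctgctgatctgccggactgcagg

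Lhx2 (ENSMUSG00000000247), a LIM-homeobox factor needed for the optic vesicle to become an optic cup, did not pass between genotypes at any age. It lies on the plus strand of chr2:38339281-38369733. At P11 its mean was 71.6 CPM ± 3.13 in mutants and 75.7 CPM ± 9.82 in controls. Mutants had 102 CPM ± 12.5 and controls 122 CPM ± 10.8 at P29, and mutants 141 CPM ± 9.28 and controls 150 CPM ± 20.6 at 3M (SD, n = 4 each). The genotypes overlapped at every age, and the log2 fold changes of -0.08, -0.26 and -0.08 (SE 0.14, 0.13 and 0.13) did not pass (edgeR adjusted p = 0.828, 0.423 and 0.922). Controls were higher at P29 than at P11 by 0.69 (SE 0.13, adjusted p = 1.24e-05), while the step to 3M of 0.30 (SE 0.13) did not pass (adjusted p = 0.119). Each of the 6 groups overlapped with its neighbour in the order of means. Neither Lhx2 promoter window held any of the 3 motifs.

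Of 10 other tested RPE fate factors (11 listed), 1 passed at P11 and none at P29 or 3M, against 6.93%, 2.84% and 2.61% of all genes. The one was Mitf, the master regulator of pigment cell genes, at 83.1 CPM ± 7.19 in mutants and 123 CPM ± 16.8 in controls (log2 fold change -0.56, SE 0.12, edgeR adjusted p = 0.000911). The median log2 fold change of the list was -0.27 at P11, -0.16 at P29 and 0.04 at 3M. Averaged over ages Mitf (-0.26, SE 0.07, adjusted p = 0.00620) and Yap1 (-0.23, SE 0.07, adjusted p = 0.0405), a transcriptional co-activator needed for RPE fate, were lower in mutants.

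Of 13 tested RPE genes known as targets of Otx2, Sox9, Lhx2 or Mitf, 7 fell in mutants at P11, none rose and 6 did not pass. Those that fell include the isomerase Rpe65 (-0.32, SE 0.04, edgeR adjusted p = 2.30e-08), the melanosome matrix gene Pmel (-0.49, SE 0.08, adjusted p = 1.58e-06) and the retinol acyltransferase Lrat (-0.37, SE 0.07, adjusted p = 4.25e-05). At P29, 3 fell, 3 rose and 7 did not pass. Those that fell were the visual cycle genes Rgr (-0.48, SE 0.05, adjusted p = 1.69e-14), Lrat (-0.50, SE 0.06, adjusted p = 2.24e-09) and Rpe65 (-0.34, SE 0.04, adjusted p = 1.59e-09), and those that rose were the melanosome genes Mlana (0.67, SE 0.15, adjusted p = 0.00246), Pmel (0.32, SE 0.08, adjusted p = 0.00626) and Tyrp1 (0.36, SE 0.09, adjusted p = 0.00859). At 3M Dct rose (0.32, SE 0.05, adjusted p = 3.58e-07) and Rpe65 fell (-0.15, SE 0.04, adjusted p = 0.0306). Over all tested genes 6.93% passed at P11, 2.84% at P29 and 2.61% at 3M. The list's medians were -0.32, -0.03 and -0.06. Of the 14 listed targets 10 are also on the RPE marker list, which had 9 of 13 tested genes lower at P11, 5 lower and 2 higher at P29, and 1 each way at 3M. The part of the RPE share in the values of Mitf and the target genes was not tested.

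**Figure D3:**
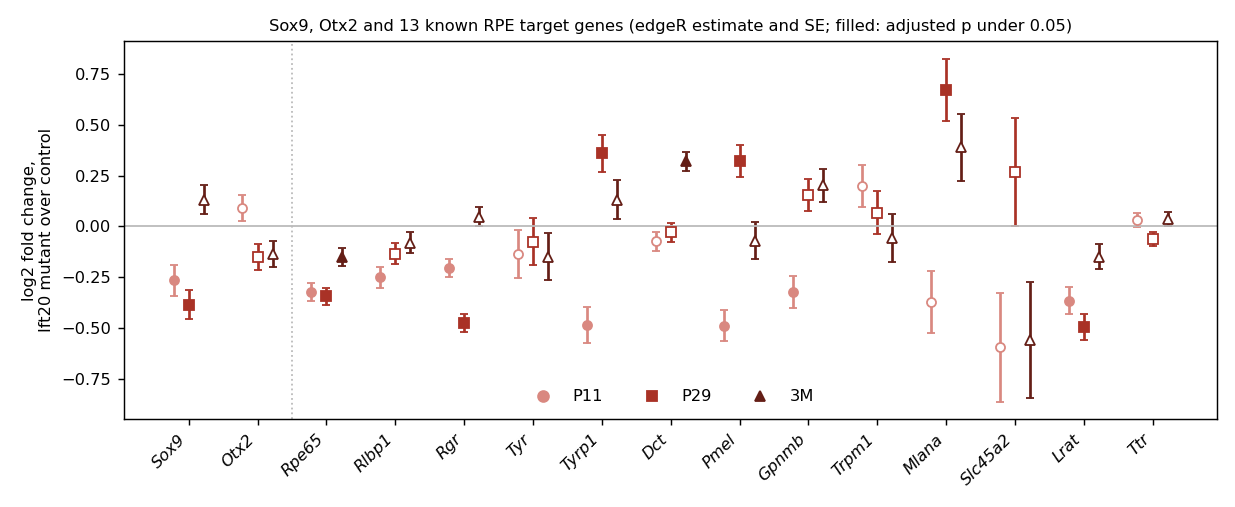
Log2 fold change of mutant over control (edgeR estimate and SE) for Sox9, Otx2 and 13 tested RPE target genes at P11, P29 and 3M. Filled points passed an adjusted p of 0.05. Of the 13 target genes 7 were lower at P11, and at P29 Tyrp1, Pmel and Mlana were higher while Rpe65, Rgr and Lrat were lower.

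Rax (ENSMUSG00000024518), the retinal homeobox gene at the head of the eye field network and later active in photoreceptors, carried the largest genotype effect at 3M among the 9 factors. It lies on the minus strand of chr18:65928277-65939787. At 3M it had 22.7, 12.6, 13.02 and 17.5 CPM in mutants and 7.99, 3.61, 2.62 and 4.85 CPM in controls, from 29 to 58 counts per mutant library and 6 to 19 per control library. No library of one genotype reached the other. The mutant mean was 3.45-fold that of controls, and the fitted value was 1.77 on the log2 scale (SE 0.30, edgeR adjusted p = 1.02e-05), a call kept in every alternative fit and without any single library. At P11 the levels were 69.3, 96.8, 87.5 and 77.6 CPM in mutants and 52.5, 71.0, 72.8 and 90.3 CPM in controls, and at P29 34.1, 33.1, 27.8 and 40.0 CPM in mutants and 26.8, 34.7, 25.8 and 20.3 CPM in controls. The genotypes overlapped at both ages, with log2 fold changes of 0.22 (SE 0.21, adjusted p = 0.646) and 0.32 (SE 0.23, adjusted p = 0.678).

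In controls Rax fell by 1.40 on the log2 scale at P29 against P11 (SE 0.22, edgeR adjusted p = 1.50e-07) and fell by 2.48 at 3M against P29 (SE 0.29, adjusted p = 1.21e-11). Group means ran from P11 mutants down through P11 controls, P29 mutants, P29 controls and 3M mutants to 3M controls, with overlap between the genotypes at P11 and at P29 and between P29 controls and 3M mutants. The difference of the genotype effect, 3M minus P29, was 1.45 (SE 0.38, adjusted p = 0.0310). That difference no longer passed when any of 7 of the 16 libraries was left out: mutant 3M replicate 1 (adjusted p = 0.147) or 4 (0.0609), control 3M replicate 2 (0.0828), 3 (0.130) or 4 (0.0555), mutant P29 replicate 3 (0.0783) or control P29 replicate 2 (0.0913). Nor did it pass with limma voom (adjusted p = 0.204) or with only the P29 and 3M libraries (adjusted p = 0.0753).

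Rod transcripts were higher in mutants as well. Of 17 rod genes 7 were higher in mutants at P11, 16 at P29 and 16 at 3M. Over all tested genes 6.93%, 2.84% and 2.61% passed in either direction at these ages. At 3M the summed rod level in mutants was 8983 to 9455 CPM, against 5146 to 5592 CPM in controls. At P29, where Rax did not pass, the rod sums did not overlap either, at 19506 to 20888 CPM in mutants and 13876 to 14403 CPM in controls. No rod marker was at 0 in all libraries, and cone genes were higher in mutants in 4 of 10 tested at 3M, with sums of 239 to 259 CPM in mutants and 145 to 184 CPM in controls. The part of photoreceptor RNA in the Rax difference was not tested.

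Pax6 (ENSMUSG00000027168), required in the eye field, the lens and retinal progenitors and kept in amacrine and ganglion cells, was on average higher in mutants at each age and passed at 3M. It lies on the plus strand of chr2:105668900-105697364. At 3M it had 14.5, 8.28, 14.8 and 8.30 CPM in mutants and 3.37, 3.16, 9.15 and 4.04 CPM in controls. Control replicate 3 lay above 2 mutant libraries, so the groups overlapped. The log2 fold change came to 1.21 (SE 0.33, edgeR adjusted p = 0.0192). The call did not hold with limma voom (adjusted p = 0.178), with only the 3M libraries (0.144), or without any one of mutant replicates 1 (0.107) and 3 (0.108) and control replicates 1 (0.105), 2 (0.0952) and 4 (0.0850).

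At P29 Pax6 had 20.7, 19.7, 28.2 and 32.1 CPM in mutants and 11.4, 17.5, 9.59 and 18.3 CPM in controls. All mutant libraries exceeded all controls, by 1.37 CPM at the closest, and the log2 fold change of 0.84 (SE 0.27) did not pass (edgeR adjusted p = 0.0656), although it did with DESeq2 (0.85, adjusted p = 0.0366). It also passed without mutant replicate 2 (adjusted p = 0.0498) or control replicate 4 (0.0474). At P11 the levels were 77.1, 83.7, 77.3 and 73.5 CPM in mutants and 44.5, 62.0, 69.6 and 57.9 CPM in controls, again without overlap, with a log2 fold change of 0.42 (SE 0.23, adjusted p = 0.326). Averaged over the ages the log2 fold change was 0.83 (SE 0.16, adjusted p = 8.31e-05). In controls Pax6 fell by 2.04 at P29 against P11 (SE 0.26, adjusted p = 1.38e-10) and fell by 1.505 at 3M against P29 (SE 0.32, adjusted p = 0.000217). Pax6 had the same order of group means as Rax, from P11 mutants to 3M controls, and overlap was found only between P29 controls and 3M mutants and between the genotypes at 3M.

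Pax6 is active in several neighbouring cell types, and their markers were present. Genes of bipolar cells, which lie in the same retinal layer as amacrine cells, summed to 768 to 865 CPM in mutants and 588 to 640 CPM in controls at P11. Their sum was 270 to 312 CPM in mutants, against 282 to 323 CPM in controls, at P29, and 172 to 193 CPM in mutants, against 165 to 188 CPM in controls, at 3M. The list's median log2 fold change was 0.65 at P11, 0.03 at P29 and 1.32 at 3M (1.87 with genes at 0 in a group at their bound and genes at or under the floor in both left out), and 4 of 10 tested were higher in mutants at 3M. Most of the later sums came from Trpm1, Prkca and Grik1, and Trpm1 is also on the RPE target list. Without these 3 genes, left out after their levels were seen, the sum was 258 to 273 CPM in mutants and 138 to 195 CPM in controls at P11, 4.73 to 18.4 CPM in mutants and 4.46 to 17.8 CPM in controls at P29, and 10.6 to 14.8 CPM in mutants and 0.452 to 4.21 CPM in controls at 3M. The genotypes were thus apart at P11 and 3M and overlapped at P29. Amacrine, ganglion and horizontal cell genes summed to 762 to 850 CPM in mutants and 750 to 827 CPM in controls at P11, to 526 to 602 CPM in mutants and 553 to 647 CPM in controls at P29, and to 540 to 604 CPM in mutants and 547 to 656 CPM in controls at 3M. The glycine transporter gene Slc6a9 held 93.8% of the sum in 3M mutants and 96.1% in 3M controls. The other 17 genes summed to 460 to 541 CPM in mutants and 389 to 417 CPM in controls at P11, to 105 to 121 CPM in mutants and 50.6 to 72.8 CPM in controls at P29, and to 26.6 to 46.7 CPM in mutants and 16.7 to 35.3 CPM in controls at 3M. Without Slc6a9, left out after the levels were seen, higher sums in mutants thus stood apart at P11 and P29. They overlapped with controls at 3M, and the sums of the whole list overlapped at every age. Among these genes at P11 the widest difference of means was in Tfap2b. Rbpms, Nefl, Pou4f1 and Sncg had lower means in mutants. Of 16 tested genes 1 was higher and 1 lower at P11, 2 higher at P29 and 1 higher at 3M, with medians of 0.22, 0.75 and 1.58. The P29 median is 0.68 with a gene at or under the floor in both genotypes left out. The 3M median is 0.87 with such genes left out and others at 0 in a group at their bound. Over all tested genes 6.93% passed at P11, 2.84% at P29 and 2.61% at 3M. Tfap2b, a transcription factor of amacrine cells, had 133 CPM ± 10.4 in mutants and 65.7 CPM ± 10.6 in controls at P11 (log2 fold change 1.02, SE 0.21, edgeR adjusted p = 0.000414). At P29 Tfap2b had 11.5 CPM ± 1.28 in mutants and 10.8 CPM ± 3.96 in controls, with overlap. At 3M it had 5.15 CPM ± 2.75 in mutants and 0.953 CPM ± 0.494 in controls (2.37, SE 0.48, edgeR adjusted p = 0.000366). Lens genes were lower in mutants at P11, with sums of 181 to 230 CPM in mutants and 335 to 378 CPM in controls. Of 16 tested lens genes 6 were lower and 0 higher at P11, with a median log2 fold change of -0.99. The lens sum was 1644 to 1729 CPM in mutants and 307 to 329 CPM in controls at P29, where 15 of 16 tested were higher. At 3M it was 471 to 493 CPM in mutants and 437 to 470 CPM in controls, and none passed. At 3M the bipolar gene Grm6 had 20 counts over the 4 mutant libraries and 0 over the 4 control libraries, at least 6.66-fold higher in mutants over a group floor of 3 counts. Their part in the Pax6 difference was not tested.

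The 2 Pax6 windows in the RefSeq table are shown because Pax6 passed between genotypes at 3M and the tags cannot tell which start was used. The upstream window held 1 CCAAT, in capitals, a motif found in 37.4% of all windows, and the other held none of the 3 motifs.
Pax6 promoter, plus strand, chr2:105668646-105668945: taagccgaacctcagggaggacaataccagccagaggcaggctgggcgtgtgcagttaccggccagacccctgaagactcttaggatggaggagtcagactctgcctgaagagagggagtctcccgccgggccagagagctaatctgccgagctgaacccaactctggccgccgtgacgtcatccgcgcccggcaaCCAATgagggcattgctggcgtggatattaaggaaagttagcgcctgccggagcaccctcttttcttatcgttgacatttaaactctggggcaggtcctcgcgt
Pax6 internal promoter, plus strand, chr2:105682213-105682512: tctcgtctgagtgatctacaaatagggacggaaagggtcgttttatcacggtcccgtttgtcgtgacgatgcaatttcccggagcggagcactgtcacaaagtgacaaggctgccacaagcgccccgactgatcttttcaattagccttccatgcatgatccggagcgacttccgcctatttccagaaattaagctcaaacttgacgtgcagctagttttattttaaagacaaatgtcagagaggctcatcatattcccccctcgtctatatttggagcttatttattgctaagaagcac

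**Figure D4:**
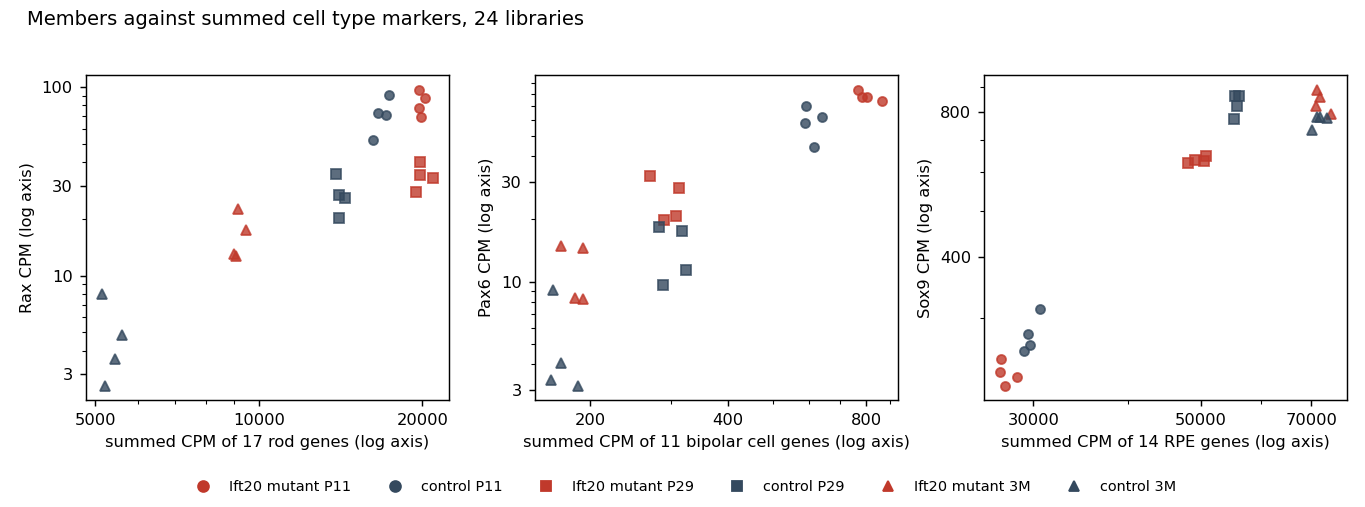
Level of Rax against summed rod genes, Pax6 against summed bipolar cell genes and Sox9 against summed RPE genes in CPM (log axes) in 24 libraries, with mutants in red, controls in blue and ages as symbols. Trpm1, Prkca and Grik1 hold 93.3% of the bipolar sum in 3M mutants and 98.8% in 3M controls, and on that panel the 3M genotypes overlap on both axes. At 3M Rax and the rod sum are both higher in mutants, while at P29 the rod sums differ by genotype and the Rax levels overlap.

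Six3 (ENSMUSG00000038805), a homeobox repressor that keeps the anterior neural plate fated to eye and forebrain, was higher in mutants at P11 and did not pass at P29 or 3M. It lies on the plus strand of chr17:85613608-85629302. At P11 it had 810, 792, 827 and 852 CPM in mutants and 488, 673, 583 and 659 CPM in controls. The lowest mutant library lay 119 CPM above the highest control. The log2 fold change of 0.45 passed (SE 0.08, edgeR adjusted p = 0.000176), and it missed the threshold with limma voom (0.47, adjusted p = 0.0623). At P29 it had 900, 949, 790 and 895 CPM in mutants and 874, 1024, 926 and 1003 CPM in controls, and at 3M 1148, 1119, 1182 and 1399 CPM in mutants and 1022, 1274, 909 and 1082 CPM in controls. The groups overlapped at both ages, with log2 fold changes of -0.11 (SE 0.08, adjusted p = 0.691) and 0.18 (SE 0.08, adjusted p = 0.385). Without control replicate 2 the 3M value passed (0.27, adjusted p = 0.0466).

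The difference of the Six3 genotype effect, P29 minus P11, was -0.57 (SE 0.12, edgeR adjusted p = 0.00162; 0.108 with limma voom). Controls rose by 0.67 between P11 and P29 (SE 0.08, adjusted p = 2.25e-09), and the P11 mutants already overlapped with the P29 mutants. The step in controls at 3M against P29 was 0.16 (SE 0.08, adjusted p = 0.224), and it passed without control 3M replicate 3 (0.24, adjusted p = 0.0428). In the order of Six3 means the P11 controls were lowest and overlapped with no other group, and each of the other groups overlapped with its neighbour. At P11 the rod and bipolar sums, and the amacrine, ganglion and horizontal cell sum without Slc6a9, were higher in mutants too. With Slc6a9 that last sum overlapped between the genotypes. The rod sums stayed apart at P29 and 3M, where Six3 overlapped. In controls the mean rod sum was 16838 CPM at P11, 14084 CPM at P29 and 5346 CPM at 3M. Six3 averaged 601 CPM, 956 CPM and 1072 CPM in the same groups. The part of these cell types in the Six3 difference was not tested. Six3 is shown with its promoter because it is called at P11 and its window held 3 CCAAT matches, 1 on the printed strand and 2 on the other (ATTGG), in capitals, in a window with 50% G and C.
Six3 promoter, plus strand, chr17:85620584-85620883: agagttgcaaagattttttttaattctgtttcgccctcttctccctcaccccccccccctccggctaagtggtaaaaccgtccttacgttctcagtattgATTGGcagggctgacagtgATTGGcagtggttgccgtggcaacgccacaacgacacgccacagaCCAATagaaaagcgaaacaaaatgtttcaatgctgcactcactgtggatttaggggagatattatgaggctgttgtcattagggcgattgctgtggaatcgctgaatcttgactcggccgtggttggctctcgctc

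Other genes of the eye field and optic vesicle passed between genotypes at P11 and 3M. Of 10 tested (13 listed), 1 passed at P11, none at P29 and 2 at 3M, against 6.93%, 2.84% and 2.61% of all genes. At P11 Hes1, a Notch-responsive repressor, had 64.7 CPM ± 6.86 in mutants and 112 CPM ± 11.4 in controls (log2 fold change -0.79, SE 0.13, edgeR adjusted p = 3.61e-06). At 3M Six6, a close relative of Six3, was among those that passed and had 17 counts in mutants and 1 in controls, a ratio of 16.98 (exact 95% interval 2.66 to 710, counting error only; edgeR adjusted p = 0.0273). At P11 Six6 was well above the floor in both genotypes, with 30.2 CPM ± 7.04 in mutants and 25.2 CPM ± 5.36 in controls. The list's median log2 fold change was 0.31, 0.03 and 1.24, and the last is 0.68 with genes at 0 in a group set to their bound and a gene at or under the floor in both left out. In controls the list had 2 genes higher and 5 lower at P29 against P11, where 32% of all genes passed in either direction. It had 6 lower at 3M against P29, where 12% of all genes passed.

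Vax2 (ENSMUSG00000034777), the ventral optic cup homeobox gene, had the largest genotype effect of the 9 factors at P11 and the fewest counts. It lies on the plus strand of chr6:83711264-83738313. At P11 it had 13.8, 25.7, 24.6 and 24.8 CPM in mutants, from 28, 59, 55 and 61 counts, and 2.67, 4.81, 5.70 and 4.78 CPM in controls, from 8, 8, 9 and 9 counts. All 4 mutant libraries exceeded all controls, with mutant replicate 1 the lowest of the 4. The mean was 4.94-fold that of controls, and the log2 fold change of 2.33 (SE 0.56, edgeR adjusted p = 0.00313) passed in every alternative fit and without any single library.

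At P29 Vax2 had 5.99, 3.55, 1.71 and 7.05 CPM in mutants and 2.86, 5.58, 7.37 and 2.97 CPM in controls, and at 3M 6.26, 2.61, 2.69 and 6.11 CPM in mutants and 1.68, 3.16, 1.74 and 0 CPM in controls. The groups overlapped at both ages, near the floor of 3 counts. The log2 fold changes were -0.05 (SE 0.57, edgeR adjusted p = 0.988) and 1.42 (SE 0.64, adjusted p = 0.349), and the difference of the effect between P29 and P11, -2.37 (SE 0.80), did not pass (adjusted p = 0.0963), although it did with DESeq2 (adjusted p = 0.0308). In controls neither P29 against P11 (0.10, SE 0.58, adjusted p = 0.916) nor 3M against P29 (-1.51, SE 0.64, adjusted p = 0.118) passed. The P11 mutants were highest of the 6 groups and overlapped with none, and the other groups overlapped with their neighbours. Vax2os, an antisense transcript of the locus, was counted at 11.8 to 37.3 CPM, with group counts of 259 in mutants and 219 in controls at P11, where Vax2 had 203 counts in mutants and 34 in controls. Summed retinal markers at P11 were higher in mutants for rods and bipolar cells, as given above. The amacrine, ganglion and horizontal cell sum was apart only without Slc6a9, left out after the levels were seen. The part of these cell types in the Vax2 difference was not tested.

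Tbx2 (ENSMUSG00000000093) and Tbx5 (ENSMUSG00000018263), T-box factors of the dorsal optic cup, showed no genotype call. Tbx2 lies on the plus strand of chr11:85832551-85841948 and Tbx5 on the plus strand of chr5:119832668-119885219. The mean of Tbx2 at P11 was 17.96 CPM ± 3.86 in mutants and 20.01 CPM ± 6.76 in controls. At P29 it was 14.6 CPM ± 6.62 in mutants and 13.97 CPM ± 5.51 in controls, and at 3M 14.1 CPM ± 2.80 in mutants and 13.8 CPM ± 6.92 in controls. The log2 fold changes were -0.15, 0.06 and 0.03 (SE 0.36, 0.36 and 0.37), every group overlapped with its neighbours, and the spread leaves differences of this size not detectable at this depth. The mean of Tbx5 at P11 was 7.12 CPM ± 4.95 in mutants and 4.59 CPM ± 1.55 in controls. At P29 it was 16.9 CPM ± 5.35 in mutants and 11.7 CPM ± 6.40 in controls, and at 3M 16.7 CPM ± 4.39 in mutants and 14.6 CPM ± 4.19 in controls. Its log2 fold changes of 0.65, 0.52 and 0.19 (SE 0.47, 0.40 and 0.40) did not pass (edgeR adjusted p = 0.493, 0.719 and 0.956).

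Tbx5 did pass in controls at P29 against P11 (1.37, SE 0.46, edgeR adjusted p = 0.0137), where Tbx2 did not (-0.50, SE 0.36, adjusted p = 0.307). That Tbx5 call was lost without control P29 replicate 3 (0.92, adjusted p = 0.160) or control P11 replicate 1 (1.22, adjusted p = 0.0513), with limma voom (adjusted p = 0.138) and with only the control libraries of these ages (0.0715). Of 12 other tested dorsoventral patterning genes (15 listed), none passed at any age between genotypes. The shares over all genes were 6.93% at P11, 2.84% at P29 and 2.61% at 3M. The list's median log2 fold change was 0.27 at P11. Vax1 and Cyp26c1 had no count in any library.

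The genes whose levels most resembled each factor over the 24 libraries, among 10500 genes averaging 5 CPM or more, are given as a description. These points share libraries and depth and fall into clusters by the 6 groups. For Sox9 they were Rpe65, Apoe and Clu (Pearson r of log2(CPM + 1) of 0.99 each), for Otx2 Arl6ip1, Plin2 and Iqgap2 (0.97, 0.97 and 0.96), and for Lhx2 Slco1a4, Slc2a1 and Pltp (0.95 each). For Rax they were Rdh12, Epb41l2 and Sag (0.97 each), for Pax6 Celf4, Mak and Casz1 (0.97 each), and for Six3 Ndufv3, Tuba1b and Hspa4 (0.93 each). Vax2 (Arid4a, Gramd1b and Frrs1l, 0.83, 0.82 and 0.82), Tbx5 (Oplah, Lmod1 and Stxbp2, 0.84, 0.82 and 0.82) and Tbx2 (Eri3, Itm2a and Mfsd12, 0.71, 0.70 and 0.69) had weaker leading coefficients. By Spearman rank correlation the order changed. For Sox9, Rpe65 had 0.81 at rank 295, Clu 0.87 at rank 52 and Apoe 0.93 at rank 2. For Vax2, Arid4a had 0.62 at rank 240. Iqgap2 for Otx2, Slc2a1 for Lhx2, Ndufv3 for Six3 and Eri3 for Tbx2 stood at rank 1.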

How the data were processed

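RNA of isolated RPE cells was read near its 3' end in 24 libraries, with groups taken from the labels. Whole-number counts per gene were deposited by the authors, with STAR and mm10 named per the submitters' processing notes, without a version; the sources used here do not name the counting tool, annotation or use of strand. Of all entries, reads in no feature made up 18.6% to 27.5%, ambiguous reads 0.192% to 0.322% and reads at multiple places 31.0% to 37.2%, and these stayed out of library sizes and tests. Symbols came from a GENCODE annotation of GRCm38, which matched 30934 identifiers and left 119 unmatched.

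Counts were tested with edgeR 4.0.16 in R 4.3.3 (quasi-likelihood, TMM, filterByExpr, robust, 1 mean per group on all 24 libraries), with adjustment over 12303 genes. Standard errors are the absolute log2 fold change over the root of F. TMM factors ran from 0.937 to 1.05. The members, gene lists and tests were chosen with earlier results of these data known. The text names all 9 factors, up to 3 genes with the smallest p of each related list called in a genotype comparison, and the 3 genes most correlated with each factor; Dct, Grm6, Yap1 and further called members were named after their values were seen. Other fits used DESeq2 1.42.0, its size factors in edgeR, voom of limma 3.58.1 with quality weights, no low-count filter, a filter of 5 CPM in 4 libraries, only the compared groups, a replicate block, or left out each library once. Same-numbered libraries did not deviate together (correlations -0.020 to 0.031), so numbers were not taken as pairs. Sampling noise was exceeded in all 36 pairs of replicates, whose chi-square per gene was 2.98 to 7.15. The spread was uneven: edgeR's common coefficient of variation was 32.7% in P11 controls and 14.9% to 22.4% in the other groups. The main fit shared its estimate of the spread over all groups. The test was checked on simulated counts. Intervals and floors cover counting error only. Promoter sequences are RefSeq's, from GRCm38.p6; Sox9, Rax, Vax2, Tbx2 and Tbx5 had no entry used here. Some list members are counted in the lists but not reported here by name.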

Additional observations from a re-analysis of the deposited data

Results flagged for a closer look

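A single library stood apart from the other 3 of its group for 4 factors, among 54 groups of 4 tested by Dixon's criterion, which chance alone meets in about 1 in 20 groups. For Vax2 mutant P11 replicate 1 had 13.8 CPM, against 24.6 to 25.7 CPM in the other mutants. For Pax6 control 3M replicate 3 had 9.15 CPM, against 3.16 to 4.04 CPM in the other controls. The same library was low for Sox9, at 733 CPM against 778 to 783 CPM. For Otx2 control P11 replicate 3 had 710.0 CPM, against 766 to 772 CPM.

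The genotype effect differed between ages for 3 factors by a test of the difference. The Six3 effect changed by -0.57 on the log2 scale between P11 and P29 (SE 0.12, edgeR adjusted p = 0.00162). The Sox9 effect changed by 0.52 between P29 and 3M (SE 0.10, adjusted p = 0.000605), and the Rax effect by 1.45 (SE 0.38, adjusted p = 0.0310).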

How the results depend on the processing

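The number of factors called changed with the tool. At P29 it was 2 with DESeq2 and 2 with limma voom, against 1 with edgeR. For the change of the effect between P11 and P29 it was 2 with DESeq2 and 0 with voom, against 1, and voom called 1 at P11, against 3, and 1 for the change between P29 and 3M, against 2. With only the groups compared, 1 was called at 3M and 1 for the change between P29 and 3M, against 2 in each. Leaving out 1 library gave 2 to 3 calls at P11, 1 to 2 at P29, 1 to 2 at 3M, 5 averaged over ages, 6 to 7 for P29 against P11 and 3 to 4 for 3M against P29 in controls, and 1 and 1 to 2 for the changes of the effect. The share of all genes called in each of these other fits is not given here. The averaged Six3 value was lost with DESeq2 (adjusted p = 0.0690) and voom (adjusted p = 0.117).

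Signs turned only for values that did not pass. For the Otx2 change between P29 and 3M the values were -0.0059 (size factors), -0.0056 (DESeq2), -0.0030 (no filter) and -0.031 (only the groups compared). With voom they were 0.030 for Tbx2 averaged, -0.033 for Vax2 at P29 against P11 in controls, 0.23 for the Tbx5 change between P11 and P29 and 0.15 for the Tbx2 change between P29 and 3M. With the replicate block, which changed no call, they were -0.035 for Tbx2 at P29 and 0.11 for its change between P29 and 3M. Leaving out 1 library, the ranges that crossed 0 were, for Tbx2, -0.31 to 0.046 (P11), -0.30 to 0.28 (P29), -0.26 to 0.24 (3M), -0.14 to 0.055 (averaged), -0.24 to 0.26 (3M against P29 in controls), -0.15 to 0.43 and -0.31 to 0.33 (changes of the effect). They were -0.42 to 0.35 for the Tbx5 change between P11 and P29, -0.34 to 0.26 for Vax2 at P29 and -0.20 to 0.29 for its control step at P29, -0.13 to 0.0045 for Lhx2 at P11, -0.026 to 0.25 for the Rax change between P11 and P29, and -0.027 to 0.054 for the Otx2 change between P29 and 3M. The cause of these changes was not tested. No factor fell below the filter, so no value without it was needed for a missing member. Depth limits Vax2 most, with counts near the floor outside P11 mutants.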
